A study of Mus musculus with 6 samples.

Results

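The tachykinin genes Tac1, Tac2, Tacr1 and Tacr3 were followed in RNA from the striatum of newborn mice. They were chosen by name, as the precursor and receptor genes of one neuropeptide family, and each of the 4 matched 1 of the 47062 genes in the authors' table. The 3 control libraries came from mice with 2 floxed alleles of Sp9 (Sp9Flox/Flox), the gene of an Sp-type zinc finger protein that regulates transcription. The 3 mutant libraries came from littermates that also carried Drd2-Cre (Drd2-Cre;Sp9Flox/Flox), a Cre recombinase driven from dopamine D2 receptor (Drd2) regulatory elements. All animals were at postnatal day 0, on a mixed background of C57BL/6J, 129S6 and CD1, and the dissected tissue included the subventricular zone. Both groups carried the floxed alleles. A Cre-only group was not part of the comparison, so what the transgene does by itself and what the loss of Sp9 does cannot be told apart. Nothing in the labels ties a library to a single animal, and the p-values cover only the spread among these libraries, which may be technical.

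Tachykinins are short peptides cut from larger precursors and released from dense-core vesicles. Tac1 encodes substance P and neurokinin A, and Tac2 encodes neurokinin B. Substance P prefers the receptor made by Tacr1 and neurokinin B the one made by Tacr3, and both receptors signal through the G proteins of the Gq class. In the adult striatum Tac1 is a marker of direct pathway (striatonigral) projection neurons, whereas Drd2-Cre is aimed at indirect pathway (striatopallidal) neurons. Tacr1 is known there from cholinergic interneurons and from interneurons that make somatostatin, neuropeptide Y and nitric oxide.

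The coding stretches of the 3 peptides are shown because they are what defines the family. They were read from the GENCODE M21 transcripts (GRCm38), on the plus strand in each case. Capitals mark the 5 codons of the shared carboxy-terminal end, which translate to phenylalanine, a variable residue, glycine, leucine and methionine. The 3 codons after them encode the glycine and the pair of basic residues at which the precursor is amidated and cut. Each stretch is printed at the same length of 42 bases. The first codon shown for neurokinin A and for neurokinin B, an arginine codon, therefore lies before the peptide itself.
substance P: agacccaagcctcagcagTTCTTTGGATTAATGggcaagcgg
neurokinin A: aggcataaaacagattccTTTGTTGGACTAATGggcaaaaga
neurokinin B: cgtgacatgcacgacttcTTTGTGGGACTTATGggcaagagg

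The substance P stretch lies in exon 3 of Tac1 at chr6:7556732-7556773. The neurokinin A stretch of Tac1 is split by an intron and spans chr6:7557743-7559139. The neurokinin B stretch of Tac2, likewise split by an intron, spans chr10:127728476-127729154. Of the 15 bases in capitals, 12 were identical between substance P and neurokinin A, 10 between substance P and neurokinin B, and 13 between neurokinin A and neurokinin B. Of the 4 coding transcript models of Tac1, 3 held the substance P stretch and 2 also held that of neurokinin A. The deposited table has 1 row per gene, so the forms of Tac1 that carry different peptides were not separated.

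The genes lie apart from each other, and none overlaps another gene in GENCODE M21. Tac1 (ENSMUSG00000061762) is at chr6:7554879-7565834 and Tac2 (ENSMUSG00000025400) at chr10:127724478-127731768. Tacr1 (ENSMUSG00000030043) is at chr6:82402334-82560104 and Tacr3 (ENSMUSG00000028172) at chr3:134829007-134934579, all on the plus strand. In the RefSeq promoter windows (GRCm38.p6; 250 bases before to 50 after the start), the GC box GGGCGG, searched on both strands, had 1 match in the window of Tac1. The windows of Tac2, Tacr1 and Tacr3 had 0 matches, and 35.7% of all 32851 windows held at least 1. No binding was measured.

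Sp9 FPKM, the targeted gene's level in fragments per kilobase relative to all mapped fragments, was 17.3 to 20.1 in the controls and 7.93 to 9.67 in the mutants (log2 fold change -1.08, adjusted p = 0.0567, limma). The libraries held 16237067 to 19457784 fragments in genes, as estimated from the low values of the authors' count columns. Markers of both projection neuron classes were present in every library. By Xist and Ddx3y, control replicate 3 was the single male library. Summed FPKM of 5 cortical genes varied most, from 7.03 in control replicate 3 and 8.01 in mutant replicate 2 to 52.9 in mutant replicate 3. In bulk tissue, fewer cells of a type and less RNA per cell cannot be told apart.

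None of the tachykinin genes changed past the test in the mutants. Of the 4, 3 had a mean FPKM of at least 0.5 and were tested with limma on log2(FPKM + 0.5) among 16666 genes. At an adjusted p under 0.05, 0 of the 3 passed, as did 0 at an unadjusted p under 0.05 with limma. Over all genes tested, 0.06% passed the adjusted threshold (0.036% higher and 0.024% lower in the mutants) and 5.65% the unadjusted one (2.65% higher and 2.99% lower). On the authors' count columns (log2 of value + 1, limma), 0 of the 3 passed when adjusted and Tacr1 alone had an unadjusted p under 0.05 (0.0351; adjusted p = 0.710).

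Tac1 FPKM was 243, 268 and 256 in control replicates 1 to 3 and 277, 215 and 271 in mutant replicates 1 to 3. The groups overlapped: mutant replicate 2 was the lowest library of all and mutant replicate 1 the highest. The control mean was 256 ± 12.6 FPKM and the mutant mean 254 ± 34.2 FPKM (SD, n = 3 each). The log2 fold change was -0.02 ± 0.11 (SE; adjusted p = 0.993, limma), with a 95% interval from -0.28 to 0.25. On a linear scale that interval runs from 0.821 to 1.19 times the control level. Without mutant replicate 2 the log2 fold change of Tac1 was 0.10, and the remaining groups did not overlap (adjusted p = 0.925, limma). Without control replicate 2 it was 0.02. These values rest on 3283 to 4141 estimated fragments of Tac1 per library.

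Tac2 was at or near 0 throughout. Its FPKM was listed at 0 in control replicates 1 and 2 and was 0.228 in control replicate 3. In mutant replicates 1 to 3 Tac2 FPKM was 0.0974, 0.0969 and 0.114. These are 2 estimated fragments over the controls and 3 over the mutants. A limit of 3 fragments, set for a count of 0, corresponds to a Tac2 FPKM of 0.314 in control replicate 1 and 0.308 in control replicate 2. It does not bound the libraries in which Tac2 was found. The exact Poisson intervals, of the kind given for Tacr3 below, ended at 3.69 fragments in control replicates 1 and 2. They ended at 7.22 fragments in control replicate 3 and at 5.57 in each mutant library. Tac2 lay under the filter, and no fold is given. The remaining genes of the family were as low: Tac4, the precursor of hemokinin, had at most 1 fragment in a library, and so did Tacr2, the receptor preferred by neurokinin A. Tac2 is known from the habenula and hypothalamus. Summed FPKM of 6 habenular and thalamic genes was 3.03 to 4.91 in the controls and 2.86 to 5.21 in the mutants, and that of 8 hypothalamic genes was 0.682 to 1.77 and 0.899 to 2.06.

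**Figure D1:**
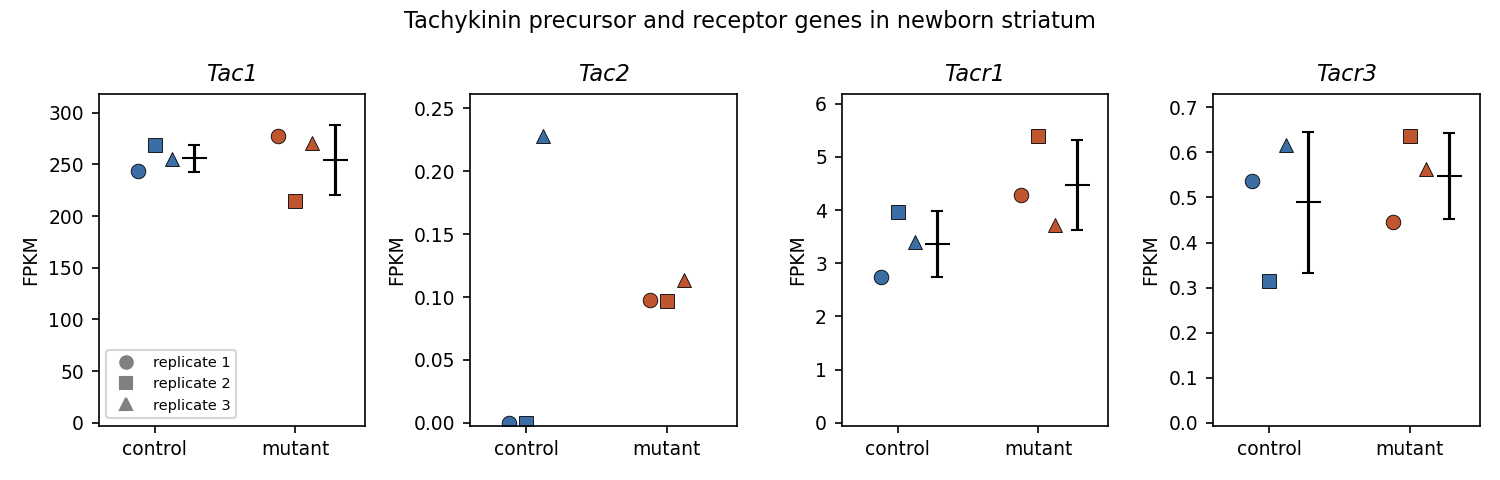
FPKM of Tac1, Tac2, Tacr1 and Tacr3 (vertical axes, one scale per gene) in 3 control and 3 mutant libraries. Symbols are single libraries; bars beside them are mean and SD (n = 3), left out for Tac2 because values of 0 are listed. Control and mutant libraries overlap in each gene.

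Tacr1, the substance P receptor gene, stood at 2.74, 3.96 and 3.40 FPKM in control replicates 1 to 3. Mutant replicates 1 to 3 had 4.29, 5.38 and 3.72 FPKM. The groups overlapped, since mutant replicate 3 lay below control replicate 2. Estimated fragments of Tacr1 were 234, 343 and 268 in the controls and 399, 506 and 290 in the mutants. The means were 3.36 ± 0.614 FPKM and 4.46 ± 0.845 FPKM (SD, n = 3 each). The log2 fold change was 0.36 ± 0.18 (SE; adjusted p = 0.882, limma). Its 95% interval, -0.08 to 0.80, reaches from 0.948 to 1.74 times the control level. Leaving out control replicate 1 or mutant replicate 2, the lowest and highest libraries, gave Tacr1 log2 fold changes of 0.24 and 0.23, in each case over 1.5 times smaller.

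Cholinergic interneuron genes had the same lowest and highest library as Tacr1. So did the summed FPKM of the lists for other interneurons, septum, hypothalamus and microglia, and these extremes are thus not particular to cholinergic genes. Control replicate 1, lowest in Tacr1, was also lowest in 5 of the 6 genes on the list, all but Chat. Mutant replicate 2, highest in Tacr1, was highest in 5 of the 6, all but Slc10a4. The list holds Chat (the enzyme that makes acetylcholine), its transporters Slc18a3 (vesicular) and Slc5a7 (for choline), the transcription factor genes Lhx8 and Gbx2, and Slc10a4. Their summed FPKM was 21.3, 27.3 and 28.4 in control replicates 1 to 3 and 35.3, 40.9 and 29.3 in mutant replicates 1 to 3. Tacr1 FPKM divided by that sum, a ratio chosen after the values were seen, was 0.128, 0.145 and 0.120 in the controls. It was 0.121, 0.132 and 0.127 in the mutants, all within the range of the controls.

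**Figure D2:**
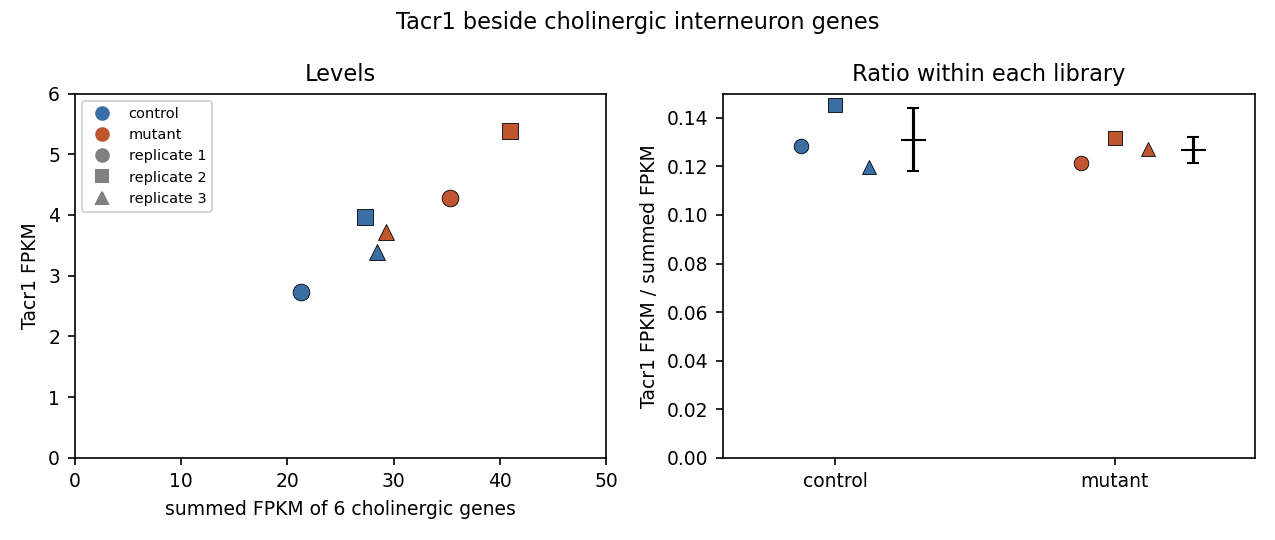
Left, Tacr1 FPKM against the summed FPKM of 6 cholinergic interneuron genes, 1 point per library. Right, the ratio of both within each library, with mean and SD (n = 3). The ratio spans 0.120 to 0.145 in the controls, and the mutants lie inside that range.

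Within the cholinergic list, 0 of 6 genes passed the adjusted threshold with limma and 1, Lhx8, was higher at an unadjusted p under 0.05. All 6 estimates were above 0, with a median log2 fold change of 0.38, beside a median of -0.00016 over all genes tested. Lhx8 FPKM was 6.32, 9.82 and 9.02 in the controls and 11.2, 14.0 and 11.0 in the mutants (log2 fold change 0.51 ± 0.18, adjusted p = 0.858, limma). Libraries of Lhx8 and Slc18a3 did not overlap between groups, as was the case for 5.32% of all genes in the upward direction. The other interneurons known to carry Tacr1 were read from Sst, Npy, Nos1 and Chodl. Of these 4 genes, 0 passed when adjusted, 4 had estimates above 0, and their median log2 fold change was 0.30. Upward estimates were not particular to these lists. All 7 tested genes on the list of other interneurons (median 0.20) and all 5 cortical genes (median 0.69) had estimates above 0 as well. In the lists of striosome, septum, glia and vessels the estimates lay on both sides of 0. Nos1, which makes nitric oxide, had an FPKM of 5.98, 7.29 and 5.70 in the controls and of 7.84 to 8.38 in the mutants, with groups that did not overlap (adjusted p = 0.795, limma). The part of interneuron numbers in the Tacr1 values was not tested.

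Tacr3, the neurokinin B receptor gene, was close to the filter on low values. Its FPKM was 0.536, 0.314 and 0.616 in control replicates 1 to 3 and 0.445, 0.635 and 0.562 in mutant replicates 1 to 3. The mutants fell inside or close to the control range, and control replicate 2 was the lowest library. The means were 0.489 ± 0.156 FPKM and 0.548 ± 0.0961 FPKM (SD, n = 3 each). The log2 fold change was 0.09 ± 0.19 (SE; adjusted p = 0.965, limma; 95% interval -0.38 to 0.57). Without control replicate 2 it was -0.04. The estimated fragments of Tacr3 were 30, 18 and 32 in the controls and 27, 39 and 29 in the mutants. Exact 95% Poisson intervals, which cover counting error only, were 10.7 to 28.4 for the lowest library and 27.7 to 53.3 for the highest. On a linear scale the limma interval runs from 0.767 to 1.48 times the control value of FPKM + 0.5. It understates the range in FPKM itself. With a pseudocount of 0.1 the log2 fold change of Tacr3 was 0.16 ± 0.38 (SE, limma). In each library Tacr1 FPKM was above Tacr3 FPKM.

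Tac1 led the neuropeptide precursors of this tissue in FPKM. Among 18 precursor genes, including Tac1 and Tac2, Tac1 ranked first in 5 of 6 libraries. In mutant replicate 2 Npy, the neuropeptide Y precursor, stood above it (257 against 215 FPKM). In the controls the order of mean FPKM was Tac1 (256 ± 12.6), Npy (189 ± 35.7), Sst (145 ± 17.2) and Penk (50.8 ± 7.15; SD, n = 3 each). In the controls every Tac1 value lay above every Npy value, whereas Npy and Sst overlapped between libraries. In the mutants the means were 254 ± 34.2 for Tac1, 240 ± 19.8 for Npy and 174 ± 27.3 for Sst, and Tac1 and Npy overlapped. Penk, the enkephalin precursor of indirect pathway neurons, came next after Sst in each control library, and Pdyn, the dynorphin precursor, did so in each mutant library. Tac1 made up 37.1 to 39.7% of the summed FPKM of the 18 genes in the controls and 30.1 to 40.1% in the mutants.

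Of the other 16 precursors, 10 passed the filter and 0 the adjusted threshold with limma. At an unadjusted p under 0.05, Pdyn and Nts were higher and Penk was lower. Nts, the neurotensin precursor, had an FPKM of 3.55, 3.06 and 3.38 in the controls and 4.78, 5.25 and 3.83 in the mutants (adjusted p = 0.809, limma). The groups did not overlap. The median log2 fold change of the 10 was 0.31, against -0.02 for Tac1 itself.

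**Figure D3:**
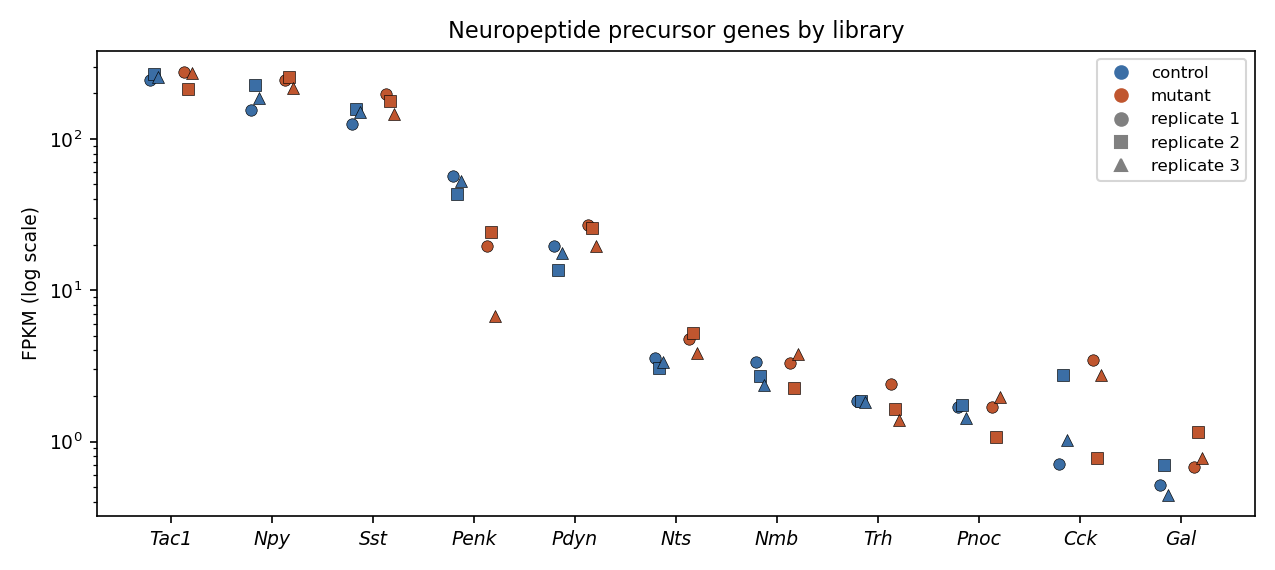
FPKM on a log scale of Tac1 and the 10 other neuropeptide precursor genes that passed the filter, 1 symbol per library. Tac1 is at the top of both groups apart from mutant replicate 2, where Npy is higher, and Penk is lower in all 3 mutant libraries than in any control.

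Since Tac1 and Drd1, the dopamine D1 receptor gene, both mark direct pathway neurons, their ratio within a library asks whether they moved alike. Such a ratio does not depend on the scaling of the library. With Tac1 itself at a log2 fold change of -0.02, a difference in the Tac1 ratio mostly restates the change of the other gene. It is not separate evidence about Tac1. Tac1 FPKM was 9.01, 14.3 and 10.1 times Drd1 FPKM in control replicates 1 to 3 and 7.34, 5.03 and 7.20 times in mutant replicates 1 to 3. All 3 mutants lay below all 3 controls. The mean log2 ratio was 3.42 ± 0.34 and 2.67 ± 0.31 (SD, n = 3 each), a difference of -0.75 ± 0.26 (SE). The exact two-sided permutation test gave p = 0.1, the smallest that 3 against 3 libraries allow, and 0.15 when adjusted over the 3 ratios examined. Drd1 FPKM was 27.0, 18.8 and 25.3 in the controls and 37.7, 42.7 and 37.6 in the mutants, without overlap (log2 fold change 0.73 ± 0.14, adjusted p = 0.566, limma).

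Against Pdyn, the other peptide precursor of direct pathway neurons, the groups overlapped. Tac1 FPKM was 12.4, 19.6 and 14.5 times Pdyn FPKM in the controls and 10.2, 8.29 and 13.7 times in the mutants. The difference in the log2 ratio was -0.52 ± 0.28 (SE, n = 3 each; exact two-sided permutation p = 0.2, adjusted 0.2). Without control replicate 2 it was -0.34. Pdyn FPKM itself was 19.6, 13.7 and 17.6 in the controls and 27.1, 25.9 and 19.7 in the mutants (adjusted p = 0.854, limma).

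Against Penk the ratio went the other way. Tac1 FPKM was 4.27, 6.25 and 4.87 times Penk FPKM in the controls and 14.1, 8.84 and 39.9 times in the mutants, without overlap. The difference in the log2 ratio was 1.71 ± 0.64 (SE, n = 3 each; exact two-sided permutation p = 0.1, the smallest possible; adjusted 0.15). Mutant replicate 3 stood far above the other mutants, and without it the difference was 1.12. Penk FPKM was 57.0, 43.0 and 52.5 in the controls and 19.7, 24.3 and 6.78 in the mutants (log2 fold change -1.73 ± 0.47, adjusted p = 0.763, limma).

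**Figure D4:**
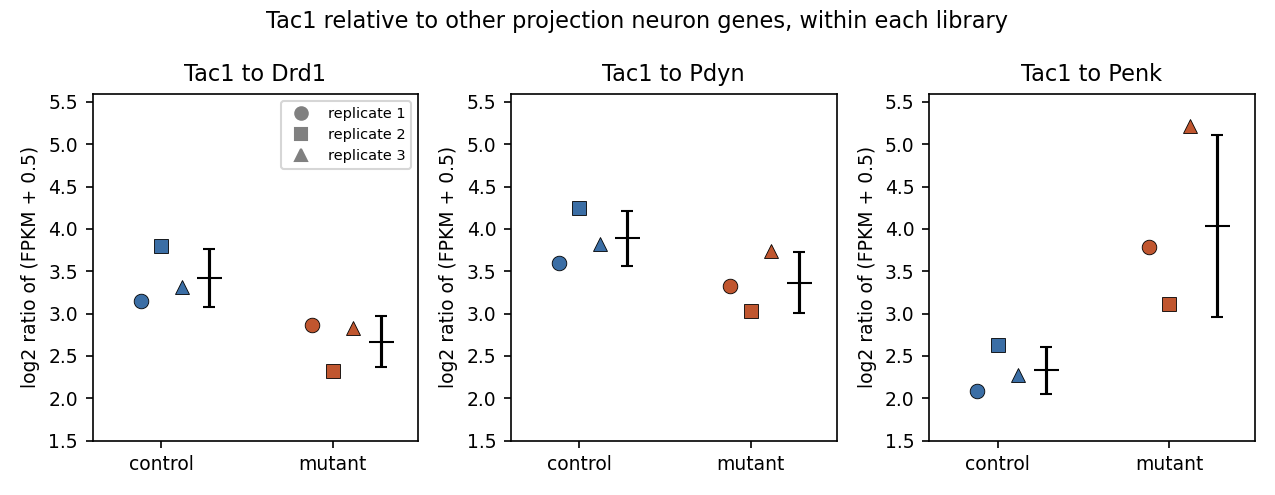
Log2 ratio of Tac1 to Drd1, Pdyn and Penk within each library, on (FPKM + 0.5), with mean and SD (n = 3). Mutants lie below the controls for Drd1 and above them for Penk, and the groups overlap for Pdyn.

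The wider set of 10 direct pathway genes, Tac1 not counted, had 0 past the adjusted threshold with limma. At an unadjusted p under 0.05, 4 were higher (Drd1, Sfxn1, Tmem158 and Pdyn) and 1 was lower (Isl1), and the median log2 fold change was 0.27. Of 9 indirect pathway genes, 2 fell past the adjusted threshold, Adora2a (log2 fold change -3.31, adjusted p = 0.00852) and Grik3 (-1.16, adjusted p = 0.0156, limma). Adora2a no longer passed when any single control, or mutant replicate 1, was left out (adjusted p up to 0.0853, limma), with log2 fold changes of -3.50 to -3.13 over the fits with 1 library left out. Grik3 no longer passed when control replicates 2 or 3, or mutant replicates 1 or 3, were left out singly (up to 0.101), with log2 fold changes of -1.19 to -1.10 over those fits. On the authors' count columns both genes passed (adjusted p = 0.000301 for Adora2a and 0.000378 for Grik3, limma). In the remaining lists, of striosome, other interneurons, cortex, septum, habenula and thalamus, hypothalamus, glia and vessels, 0 genes passed when adjusted, and at an unadjusted p under 0.05 Nxph1 was higher and Nr4a1 and Gpr151 were lower (limma).

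Genes for the processing of peptide precursors in general, and for dense-core vesicles, were examined as a list. It covers the convertases Pcsk1 and Pcsk2, the trimming and amidating enzymes Cpe and Pam, and granins and other proteins of dense-core vesicles. Of its 13 genes, 0 passed the adjusted threshold with limma, 1 was higher (Qpct) and 1 lower (Pcsk2) at an unadjusted p under 0.05, and the median log2 fold change was -0.0034. Pcsk2, the main neuronal convertase of peptide precursors, had an FPKM of 58.3, 45.3 and 56.8 in the controls and 47.0, 40.2 and 40.3 in the mutants. Mutant replicate 1 lay above control replicate 2, so the groups overlapped (log2 fold change -0.32 ± 0.12, adjusted p = 0.858, limma). Qpct, which forms amino-terminal pyroglutamate, had an FPKM of 2.33, 2.45 and 2.36 and of 3.48, 2.69 and 3.07, without overlap (adjusted p = 0.858, limma). Groups did not overlap in either direction for 11.4% of all genes tested. Pam, the enzyme that amidates substance P, had a log2 fold change of 0.14 (95% interval -0.13 to 0.41).

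Of 7 peptidases able to cut tachykinins, 6 passed the filter, 0 the adjusted threshold with limma and 1, Mme, was lower at an unadjusted p under 0.05. Mme encodes neprilysin, a membrane enzyme that degrades substance P. Its FPKM was 8.25, 8.06 and 7.49 in control replicates 1 to 3 and 7.17, 5.40 and 6.34 in mutant replicates 1 to 3. In FPKM every mutant was below every control, with a log2 fold change of -0.32 ± 0.11 (adjusted p = 0.858, limma). On the authors' count columns the groups overlapped for Mme (log2 fold change -0.26, adjusted p = 0.704, limma). Ece1, an endothelin-converting enzyme that also cuts substance P inside cells, had an FPKM of 62.1 in control replicate 1 and of 9.61 to 10.9 in the other 5 libraries. The authors' count columns for Ece1 held 861 in that library and 798 to 882 in the others, so the FPKM of Ece1 in control replicate 1 is not matched by its count. For Tac1, Tacr1 and Tacr3 the FPKM per count differed between libraries by at most 1.06, 1.02 and 1.01 times.

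Of 20 genes of receptor signalling, 19 passed the filter and 0 the adjusted threshold with limma, and their median log2 fold change was -0.0065. At an unadjusted p under 0.05, 2 were higher. Plcb4, a phospholipase C of the Gq pathway, had an FPKM of 4.22, 4.48 and 4.55 in the controls and 6.13, 5.45 and 6.15 in the mutants, without overlap (log2 fold change 0.38 ± 0.08, adjusted p = 0.578, limma). Grk3, a kinase that desensitizes receptors, had 8.13, 6.15 and 6.62 FPKM and 8.09, 9.81 and 9.57 FPKM, and mutant replicate 1 lay just below control replicate 1 (adjusted p = 0.847, limma). On the authors' count columns the groups did not overlap for Grk3 (log2 fold change 0.33, adjusted p = 0.137, limma). The Gq subunit genes had narrow intervals: the log2 fold change of Gnaq was 0.05 (95% interval -0.04 to 0.14) and that of Gna11 was -0.06 (-0.15 to 0.04). Nalcn, a sodium leak channel that substance P opens in neurons, had an FPKM of 16.5, 16.9 and 17.2 in the controls and 15.7, 16.0 and 14.3 in the mutants (adjusted p = 0.858, limma), again without overlap.

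**Figure D5:**
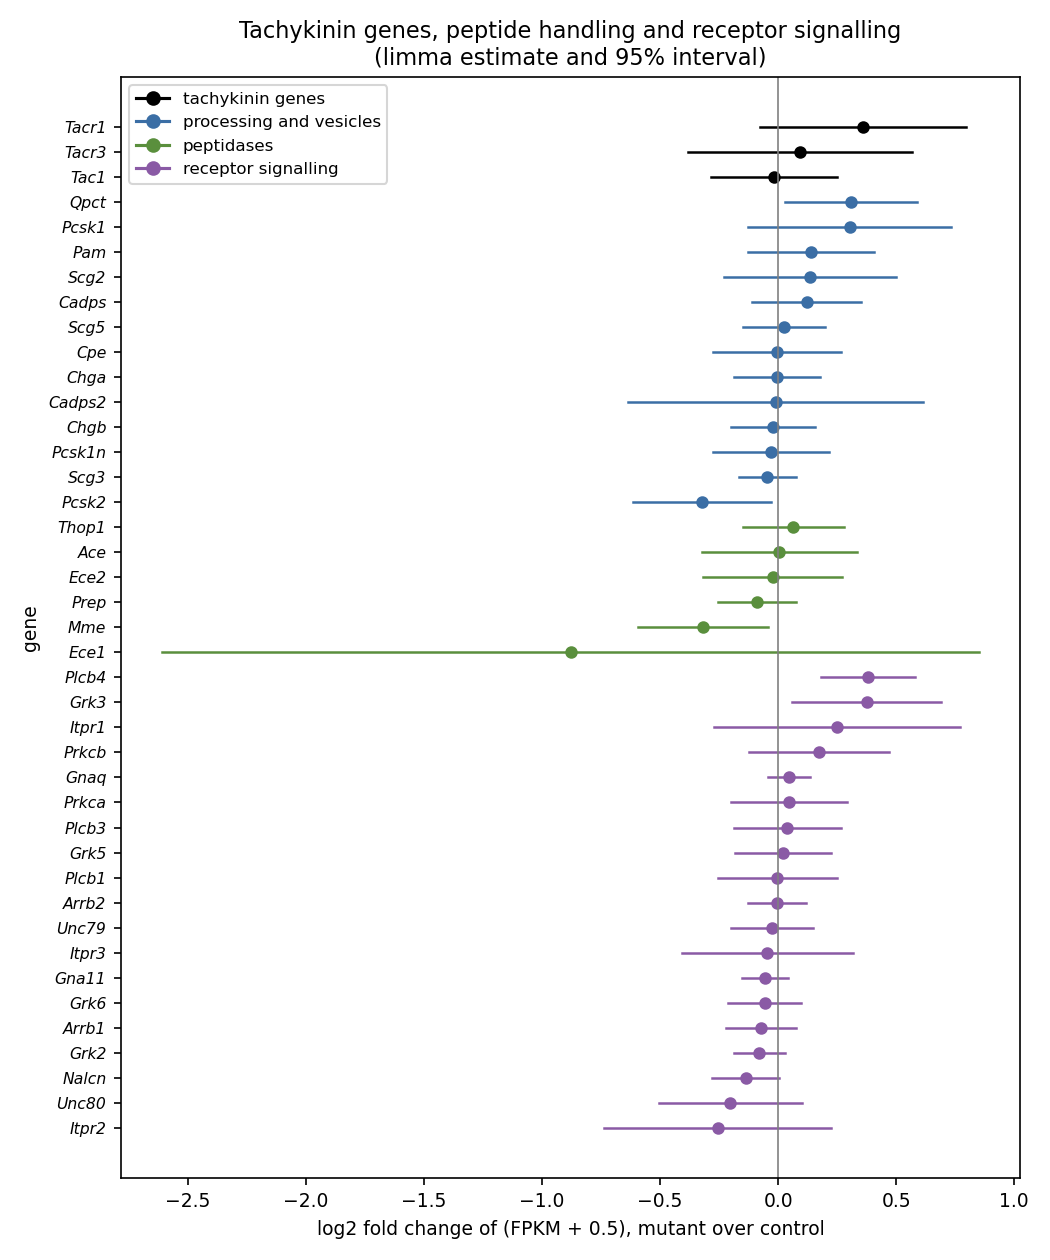
Log2 fold change of (FPKM + 0.5), mutant over control, with the 95% interval from limma, for the 3 tested tachykinin genes, 13 genes of precursor processing and vesicles, 6 peptidases and 19 signalling genes. No gene passes the adjusted threshold; Ece1, with an FPKM of 62.1 in control replicate 1, has the widest interval.

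The genes closest to each tachykinin gene over the 6 libraries were found by Pearson correlation of log2(FPKM + 0.5), among genes with established names and a mean of 5 FPKM or more. All points share their library and its depth, so the values are a description only. For Tac1 the closest were Cebpg (r = 0.976), Igf1r (0.970) and Aamdc (0.962), and 21 of 8941 genes had an r above 0.9. Igf1r, an insulin-like growth factor receptor gene, had an FPKM of 6.87 in mutant replicate 2 and of 8.20 to 9.01 elsewhere, low in the same library as Tac1. For Tacr1 they were Borcs8 (r = 0.994), Prr18 (0.986) and Timm8a1 (0.983), and 120 of 8942 genes had an r above 0.9. For Tacr3 they were Kank3 (r = 0.995), Bcl2l13 (0.973) and Ccnj (0.973), with 31 genes above 0.9.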

How the data were processed

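The authors deposited 1 table whose columns, per the file headers, give each library's FPKM and a count. Per the submitters' processing notes, the tools were TopHat and Cufflinks 2.1.1 and the build GRCm38.p4. Annotation, strand use and handling of multiply mapped reads: not given in the sources used here. The deposited count columns hold a signal, estimated fragments multiplied by 1 factor per library: with vanishing values under 0.01 left aside, 97.7 to 97.9% were whole multiples, to within 0.1, of the commonest small value. Dividing by that value gave the estimated fragments. The values are not whole throughout, so no count model was run.

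Symbols came from GENCODE M21 and matched 46483 of 47062 identifiers. Libraries were grouped by the labels. limma 3.58.1 in R 4.3.3, with a trend of variance on level and no covariate, was fitted to log2(FPKM + 0.5) for the 16666 genes whose mean FPKM reached 0.5. Fold changes on that scale understate those of low genes. P-values are two-sided and were adjusted over all genes by the Benjamini-Hochberg method, at a threshold of 0.05. Ratios within libraries were compared by exact permutation tests. The limma step was tested on simulated data.

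The tachykinin genes and the 19 gene lists were chosen with earlier results of these data known. From the cholinergic list, 1 gene is not reported here and was left out of its counts and sums. Named genes are the tachykinin genes, Sp9, members of the projection neuron and precursor lists, from each other list those past the threshold and up to 4 more with the smallest p, and for each tested tachykinin gene the 3 closest by correlation. Cpe, Gnaq, Gna11, Xist, Ddx3y, Pou4f1, Lhx9 and the whole cholinergic list were named outside that rule, after their values were seen. Alternatives were other pseudocounts, filters and scalings, a replicate block, robust limma, the count columns and each library left out.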

Additional observations from a re-analysis of the deposited data

How the results depend on the processing

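Tac1, Tacr1 and Tacr3 stayed above the adjusted threshold of 0.05 in each alternative fit that tested them (adjusted p from 0.925, 0.662 and 0.910 up to 1, limma). With 1 library left out, log2 fold changes of Tac1 ran from -0.083 to 0.10, above 0 without control replicate 2 (0.02) and without mutant replicate 2 (0.10). Those of Tacr1 ran from 0.23 to 0.47. Those of Tacr3 ran from -0.042 to 0.19, below 0 without control replicate 2. On the count columns they were -0.05, 0.42 and 0.20. The log2 ratio differences ran from -0.89 to -0.56 (Tac1 to Drd1), -0.71 to -0.34 (Tac1 to Pdyn) and 1.12 to 2.17 (Tac1 to Penk) with 1 library left out. The count of genes past the threshold, 10 as reported, was 5 with the replicate block, 23 on the count columns and 12 to 21 with 1 library left out (16, 20, 18 and 21 without control replicate 1, control replicate 3, mutant replicate 2 and mutant replicate 3); the cause was not tested.

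Replicate numbers are shared by the groups, but the deviations of same-numbered libraries from their group means correlated at only 0.0025, 0.037 and 0.043 and the libraries were not treated as pairs. Control replicates 2 and 3 correlated best with the mutant of their own number, and control replicate 1 with mutant replicate 2. With the replicate block the log2 fold change of Tacr1 was 0.36 (adjusted p = 0.868, limma) and no tachykinin gene passed, while Adora2a (adjusted p = 0.220) and Grik3 (0.180) no longer passed, at log2 fold changes of -3.31 and -1.16 as in the fit without it. Tac2 lay under the filter (mean FPKM 0.0893). No value is given for it from the fit without the filter either, at 3 or fewer estimated fragments in each group. Tacr3 gave no value at a mean FPKM of at least 1. The planned count models were not run because the count columns are not whole. Depth limits Tac2 and Tacr3 most.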

Other observations

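Gpr151, an orphan receptor gene known from the habenula, averaged 1.51 ± 0.163 FPKM in the controls (1.36 to 1.68) and 1.04 ± 0.149 FPKM in the mutants (SD, n = 3 each; lowest 0.904). The groups did not overlap (log2 fold change -0.39 ± 0.14, adjusted p = 0.858, limma). The other habenular and thalamic genes tested, Nwd2, Tcf7l2 and Slc17a6, overlapped between groups, and Pou4f1 and Lhx9 lay under the filter.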
